A study of Homo sapiens with 12 samples.

Results

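Human cells oxidise and conjugate small molecules with 4 enzyme families that are described here together, namely the cytochrome P450s (CYP), the UDP-glucuronosyltransferases (UGT), the alcohol dehydrogenases (ADH) and the cytosolic sulfotransferases (SULT). Genes were taken by symbol, with the cholesterol-synthesis enzyme CYP51A1 left out, which gave 96 of the 58830 entries of the expression table. These were 55 CYP, 21 UGT, 7 ADH and 13 SULT genes. In 3 or more of the 12 libraries, 57 of them reached a normalized count of 10 (32 CYP, 13 UGT, 4 ADH and 8 SULT), as did 20456 entries in all. The other 39 stayed below that level. Of these 39, 6 were at 0 in every library, and the highest single value was 21.5, for CYP2C8 in 1 untreated wild-type library. Just inside the limit, with exactly 3 libraries at 10 or more, lay SULT1C4, UGT3A2 and CYP1A1. Just outside it, with 2 such libraries, lay CYP3A7, CYP2C8 and CYP11A1.

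The cells were A549, a human lung adenocarcinoma epithelial line, either wild type or a single derivative labelled Sm22mut, a knockout of the regulatory edge by which miR-22 acts on SNAI1, called the edited line below. Each line was either untreated or received 10 ng/mL TGFβ, which drives epithelial cells towards a mesenchymal state, and day 5 was sampled. Each of the 4 groups held 3 libraries, which the labels call biological repeats, and the spread between those repeats is what a p-value measures. Because only 1 edited derivative was used, effects of the edit and of how that line was derived cannot be told apart.

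P450s are haem enzymes that insert oxygen into lipophilic substrates, taking electrons from a reductase, and they clear drugs and carcinogens as well as the body's own retinoids, vitamin D, sterols and fatty acids. UGTs and SULTs then attach glucuronic acid or sulfate, which makes such molecules soluble, and ADHs oxidise alcohols and retinol to aldehydes. In airway and alveolar epithelium these enzymes meet inhaled chemicals, and several are induced there through the aryl hydrocarbon receptor AHR. A549 cells are a common model of lung epithelial drug metabolism.

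Values are normalized counts, and between 84210775 and 111141708 reads could be recovered per library. Within groups, the pair of libraries furthest apart was replicates 1 and 3 of treated wild type, with a chi-square of 113.6 per gene against 10.7 to 39.4 for the other pairs. The 6 epithelial markers (EPCAM, CDH1 and 4 keratins) summed to between 486510 and 648910 in every library, nearly all of it KRT8, KRT18 and KRT7. Each of the 6 was called with TGFβ in both lines. On the log2 scale in wild type and the edited line, CDH1 (-1.63 and -1.73), EPCAM (-0.86 and -0.25) and KRT19 (-1.26 and -1.41) fell. KRT8 (-0.22 and -0.33) and KRT18 (-0.30 and -0.26) fell slightly, and KRT7 rose (1.06 and 0.52). Among the 5 alveolar type II markers, SFTPA1, SFTPB and SFTPC averaged below 10 in every group. Sums of all 5 were 587 to 635 (untreated) and 1492 to 1668 (treated) for wild type. The edited line had 809 to 868 (untreated) and 1827 to 2088 (treated). ABCA3 was called higher with TGFβ in both lines (log2 fold changes 1.49 and 1.34), and NAPSA in wild type alone (0.52). SNAI1, whose microRNA site the edit concerns, ranged from 400.4 to 576 in untreated wild type, from 768 to 958 in treated wild type, from 432 to 513 in the untreated edited line and from 1214 to 1406 in the treated edited line. In bulk RNA, fewer cells of a kind and less RNA per cell cannot be told apart. Markers of other cell types moved with the treatment. The 6 hepatocyte markers, nearly all of it the urea cycle enzyme CPS1, summed to 69932 to 79996 in untreated wild type, 11778 to 15112 in treated wild type, 148310 to 169430 in the untreated edited line and 24134 to 27434 in the treated one. Of these markers, F9 averaged below 10 in every group, and ALB and APOA1 did so in both treated groups. The 6 fibroblast markers summed to 147 to 185, 1238 to 1450, 180 to 259 and 1769 to 2110.3 in the same order, with DCN averaging below 10 in all 4 groups. Endothelial sums were 114 to 153, 41.2 to 75.6, 147 to 197 and 48 to 64.8 in that order. Leukocyte sums were 77.8 to 111, 49.6 to 80.2, 113 to 139 and 48.5 to 69.4. The endothelial gene PECAM1 fell (log2 fold change -5.48 in wild type, -4.47 in the edited line) and TEK rose (4.61 and 4.39), each called in both lines. The leukocyte gene CD3E and the endothelial gene KDR were below 10 in all 4 groups. The part of these markers in the results below was not tested.

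TGFβ changed most of the detected enzymes, and more of them fell than rose. In wild type, 46 of the 57 passed the limma test at an adjusted p below 0.05 (80.7%, against 61.7% of all genes tested), 18 higher and 28 lower, where 30.8% and 30.9% of all genes rose and fell. A change of at least 2-fold was called for 32 of them, 12 higher and 20 lower, and for 25% of all genes. Their median log2 fold change was -0.41, against 0.02 over all genes tested. In the edited line 41 passed (71.9%, against 62.8% of all genes), 15 higher and 26 lower, where 32.1% and 30.7% of all genes rose and fell, with a median of -0.15. At least 2-fold changes numbered 34 there, 14 higher and 20 lower, against 26.3% of all genes. By family, 11 CYP, 5 UGT, 0 ADH and 2 SULT genes rose in wild type, while 14 CYP, 7 UGT, 3 ADH and 4 SULT genes fell. The filter bears on these counts, since 6 of the 57 reached 10 in untreated libraries and in no treated one, and 2 in treated libraries and in no untreated one. The 6 included UGT2B15, UGT2B11, ADH1C, UGT3A2 and SULT1A2, and the 2 were CYP27A1 and CYP1A1. Across both lines, which share no library, 14 genes rose in both, 24 fell in both, 8 passed in wild type alone, 3 in the edited line alone, 8 in neither and 0 in opposite directions. As shares of the 57, 24.6% rose in both and 42.1% fell in both, against 24.7% and 24.4% of all genes tested, and 1.07% of all genes were called in opposite directions. The plot of normalized counts by library shows the members on which the account turns.

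**Figure D1:**
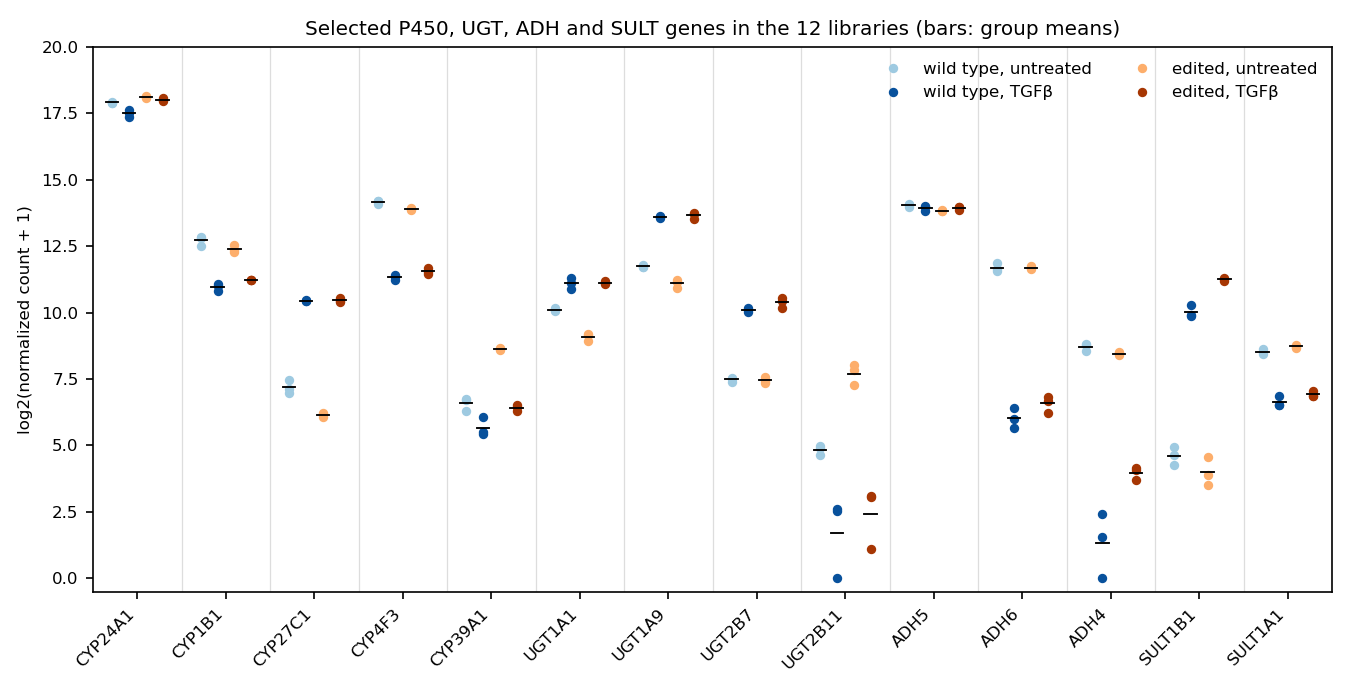
Normalized counts of 14 genes on the log2(normalized count + 1) scale (y axis), with each point 1 library, colours for the 4 groups and black bars for the mean of the 3 log2 values of a group. ADH6 and ADH4 drop and SULT1B1 climbs with TGFβ in both lines, ADH5 stays level, and CYP39A1 and UGT2B11 are higher in the untreated edited libraries than in the untreated wild-type ones.

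Counts divided by exon length allow a rough comparison of levels between genes. The lengths are those of GENCODE 29, and the annotation behind the counts is not given. Of the exon bases of UGT1A9 and UGT1A6, 61.2% and 44.0% are shared with other members, so their places are uncertain. Per kilobase of annotated exon, CYP24A1 led in every group, at 62045 in untreated wild type. It was followed there by the fatty acid hydroxylase CYP4F11 at 4510.1, the cholesterol sulfotransferase SULT2B1 at 3948, the formaldehyde-oxidising ADH5 at 3465 and the leukotriene hydroxylase CYP4F3 at 3337. CYP2S1 at 1717, UGT1A9 at 1424, UGT1A6 at 1239 and CYP1B1 at 1124 came next. P450s known mainly for drug clearance lay far below, with CYP3A5 at 114 and CYP2B6 at 58.1 normalized counts per kilobase. CYP2D6 at 10.5, CYP3A4 at 5.56 and CYP2E1 at 0.88 were lower still.

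CYP24A1, the mitochondrial enzyme that inactivates vitamin D hormone, was the most abundant member in all 12 libraries. It took between 0.177% (exact 95% interval 0.176% to 0.178%) and 0.323% (0.322% to 0.324%) of all recovered reads of a library and 68.6% to 77.7% of the reads of the 96 genes together. The intervals cover counting error only. Its values were 242578, 245761 and 250991 in the untreated wild-type libraries and 167623, 189400 and 199980 in the treated ones. CYP24A1 stood at 287620, 280574 and 293401 in the untreated edited libraries and 254032, 276321 and 260831 in the treated ones. All 3 treated wild-type libraries lay below all others. The fall with TGFβ in wild type was 1.33-fold (log2 fold change -0.41, SE 0.08, limma adjusted p = 1.93e-04). In the edited line the log2 fold change was -0.12 (adjusted p = 0.172), which did pass with edgeR (adjusted p = 0.0469). The difference between those responses was 0.29 (adjusted p = 0.0819) and passed without treated wild-type replicate 3 and with DESeq2 (adjusted p from 0.0178 to 0.0191).

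Of the enzymes that make vitamin D hormone, CYP27B1 fell in the edited line and CYP2R1 rose slightly in wild type. CYP27B1, which forms the active hormone, stood at 227, 264 and 213 in the untreated wild-type libraries and 207, 231 and 204 in the treated ones. CYP27B1 stood at 377, 300.3 and 316 in the untreated edited libraries and 196, 196 and 147 in the treated ones. It was highest in the 3 untreated edited libraries. CYP27B1 fell with TGFβ in the edited line (log2 fold change -0.88, SE 0.15, limma adjusted p = 8.79e-05), while in wild type the log2 fold change was -0.13 (adjusted p = 0.481). The responses differed by -0.75, SE 0.21, limma adjusted p = 0.0244, a call lost without untreated wild-type replicates 1 and 3, treated wild-type replicate 2, untreated edited replicate 1 or treated edited replicate 3 (adjusted p from 0.0546 to 0.0722). CYP2R1, the vitamin D 25-hydroxylase, went from 1767 ± 107 (SD, n = 3) to 2117 ± 19.7 in wild type (log2 fold change 0.26, SE 0.07, limma adjusted p = 0.00245), and its log2 fold change in the edited line was 0.08 (adjusted p = 0.316). The sterol 27-hydroxylase CYP27A1 ranged from 1.08 to 20.9 and passed no test.

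VDR, the vitamin D receptor, rose in both lines, from 586 to 1428 in wild type (log2 fold change 1.28, SE 0.08, limma adjusted p = 1.15e-09) and from 337 to 1623 in the edited line (log2 fold change 2.27, SE 0.08, limma adjusted p = 8.06e-13). CYP24A1 is a textbook target of that receptor.

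Among the P450s that activate polycyclic hydrocarbons under AHR control, CYP1B1 was abundant and fell, and CYP1A1 was barely detected. CYP1B1, which also hydroxylates estradiol, stood at 7306, 5837 and 7145 in the untreated wild-type libraries and 1781, 2186 and 2049 in the treated ones. CYP1B1 stood at 5258, 5006 and 5991 in the untreated edited libraries and 2383, 2385 and 2384 in the treated ones. Treated and untreated libraries did not overlap in either line. The fall was 3.37-fold in wild type (log2 fold change -1.75, SE 0.09, limma adjusted p = 1.02e-10) and 2.27-fold in the edited line (log2 fold change -1.18, SE 0.09, limma adjusted p = 1.28e-08). The fall was smaller in the edited line, with an interaction of 0.57, SE 0.13, limma adjusted p = 0.00738.

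CYP1A1, the best known AHR target, ranged from 2.15 to 26.4 over the 12 libraries and passed the filter through treated libraries alone. Its call in wild type (log2 fold change 1.65, SE 0.67, limma adjusted p = 0.0426) was lost without untreated wild-type replicates 2 and 3, treated wild-type replicates 1 and 3 or untreated edited replicate 2 and with no filter or quantile normalization (adjusted p from 0.0515 to 0.155), and the value was 0.82 with a pseudocount of 10. CYP2S1, an extrahepatic P450 also reported to respond to AHR ligands, stood at 4859, 4775 and 5172 in the untreated wild-type libraries and 2953, 2624 and 2343 in the treated ones. CYP2S1 stood at 3668, 3018 and 3485 in the untreated edited libraries and 3068, 3006 and 3041 in the treated ones. The untreated wild-type libraries lay above all others. CYP2S1 fell 1.87-fold in wild type (log2 fold change -0.91, SE 0.08, limma adjusted p = 9.67e-08), while in the edited line its log2 fold change was -0.15 (adjusted p = 0.126), which passed without untreated edited replicate 2 (adjusted p = 0.0292) and was -0.09 without untreated edited replicate 1. The difference between the lines was 0.75, SE 0.12, limma adjusted p = 5.02e-04.

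AHR itself stood at 22503, 19353 and 21929 in the untreated wild-type libraries and 3536, 3949 and 4761 in the treated ones. AHR stood at 13386, 13975 and 15901 in the untreated edited libraries and 4080.0, 4589 and 4410.5 in the treated ones. It fell 5.21-fold in wild type (log2 fold change -2.39, SE 0.10, limma adjusted p = 3.23e-12) and 3.31-fold in the edited line (log2 fold change -1.72, SE 0.10, limma adjusted p = 1.75e-10), with no overlap between treated and untreated libraries. TIPARP, a feedback inhibitor induced by AHR, rose, from 2909 to 12473 in wild type (log2 fold change 2.10, SE 0.06, limma adjusted p = 8.18e-14) and from 2086 to 12567 in the edited line (log2 fold change 2.59, SE 0.06, limma adjusted p = 5.37e-15). The AHR repressor AHRR ranged from 37.5 to 87.7 and passed no test.

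The P450s that act on retinoids, CYP27C1, CYP26A1 and CYP26B1, rose. CYP27C1, which desaturates vitamin A1 to vitamin A2, stood at 139.6, 174 and 125 in the untreated wild-type libraries and 1378, 1425 and 1373 in the treated ones. CYP27C1 stood at 71.2, 66.5 and 73.6 in the untreated edited libraries and 1495, 1352 and 1388 in the treated ones. Every treated library was far above every untreated one. The rise was 9.54-fold in wild type (log2 fold change 3.26, SE 0.12, limma adjusted p = 1.11e-12) and 20.05-fold in the edited line (log2 fold change 4.31, SE 0.12, limma adjusted p = 3.09e-14). The response of the edited line was larger (1.05, SE 0.17, limma adjusted p = 6.64e-04). Its untreated libraries were lower than those of wild type, and the treated libraries of the lines overlapped.

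CYP26A1 and CYP26B1, the enzymes that clear retinoic acid, also rose in both lines. CYP26B1 stood at 2568, 2566 and 2708 in the untreated wild-type libraries and 5797, 6017 and 6184 in the treated ones. CYP26B1 stood at 2318, 2419 and 2423 in the untreated edited libraries and 6329.8, 5994 and 6192 in the treated ones. Treated libraries were all above untreated ones, by 2.29-fold in wild type (log2 fold change 1.20, SE 0.06, limma adjusted p = 1.60e-11) and 2.59-fold in the edited line (log2 fold change 1.37, SE 0.06, limma adjusted p = 2.65e-12). CYP26A1 stood at 87.7, 109 and 87.01 in the untreated wild-type libraries and 243, 188 and 139.5 in the treated ones. CYP26A1 stood at 48.5, 27.9 and 28.6 in the untreated edited libraries and 135, 79.7 and 118 in the treated ones. It rose in wild type (log2 fold change 0.97, SE 0.27, limma adjusted p = 0.00535) and in the edited line (log2 fold change 1.65, SE 0.27, limma adjusted p = 5.66e-05), and within each treatment the edited libraries lay below the wild-type ones. That difference passed in untreated cells (log2 fold change -1.45, SE 0.27, limma adjusted p = 7.28e-04), whereas with TGFβ it was -0.77 (adjusted p = 0.0795) and passed without treated wild-type replicate 3 and with the replicate block or DESeq2 (adjusted p from 0.0227 to 0.0471).

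Of the 14 retinoid-handling genes tested beside them, 5 rose and 5 fell in wild type (35.7% each, against 30.8% and 30.9% of all genes). In the edited line 6 rose and 5 fell (42.9% and 35.7%, against 32.1% and 30.7%). The secreted retinol carrier RBP4 fell from 963 to 28.96 (log2 fold change -5.03, SE 0.17, limma adjusted p = 3.5e-13) and likewise in the edited line (log2 fold change -4.75, SE 0.17, limma adjusted p = 6.42e-13). The retinol uptake receptor STRA6 (2.29 in wild type, 2.47 in the edited line), the transglutaminase TGM2 (1.81 and 2.00) and the retinoic acid receptor RARB (1.02 and 1.41) rose in both, each at a limma adjusted p below 0.05.

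Fatty acid hydroxylases of the CYP4F group fell steeply. Their genes lie together on chromosome 19 (GRCh38, chr19:15508493-15934867), where 6 members are annotated and 5 passed the filter. CYP4F3, which inactivates leukotriene B4, stood at 17593, 18915 and 18730.2 in the untreated wild-type libraries and 2369, 2619.6 and 2748 in the treated ones. CYP4F3 stood at 14780.1, 15215 and 15622 in the untreated edited libraries and 2828, 3259 and 2942 in the treated ones. CYP4F11, an omega-hydroxylase of fatty acids and vitamin K, stood at 17729.6, 18975 and 17783 in the untreated wild-type libraries and 2939, 3228 and 2852 in the treated ones. CYP4F11 stood at 13829, 13564 and 13316 in the untreated edited libraries and 2832, 3190.5 and 2926 in the treated ones. For both genes every treated library was far below every untreated one. The fold change of CYP4F3 was 7.14-fold in wild type (log2 fold change -2.84, SE 0.07, limma adjusted p = 4.59e-15) and 5.05-fold in the edited line (log2 fold change -2.34, SE 0.07, limma adjusted p = 4.36e-14). For CYP4F11 it was 6.04-fold (log2 fold change -2.60, SE 0.06, limma adjusted p = 5.35e-15) and 4.55-fold (log2 fold change -2.19, SE 0.06, limma adjusted p = 3.87e-14). Both falls were smaller in the edited line, by 0.50 for CYP4F3 (adjusted p = 0.00216) and 0.41 for CYP4F11 (adjusted p = 0.00484).

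CYP4F12 stood at 500.4, 486 and 573 in the untreated wild-type libraries and 107, 103 and 94.1 in the treated ones. CYP4F12 stood at 556, 461 and 569.7 in the untreated edited libraries and 98.1, 86.1 and 42.1 in the treated ones. Both lines showed a fall, in wild type (log2 fold change -2.35, SE 0.23, limma adjusted p = 2.11e-07) and in the edited line (log2 fold change -2.87, SE 0.23, limma adjusted p = 1.65e-08). CYP4F2, the main vitamin K hydroxylase, was scarce, between 9.69 and 106. It fell in wild type (log2 fold change -2.22, SE 0.37, limma adjusted p = 6.82e-05) and in the edited line (log2 fold change -1.15, SE 0.37, limma adjusted p = 0.0126). The latter call was lost without untreated edited replicate 1 or treated edited replicate 2 (adjusted p from 0.0578 to 0.0727), and without treated edited replicate 2 the log2 fold change was -0.73. The fifth gene, CYP4F22, ranged from 4.13 to 32.6 and passed no test. These genes are close copies of each other, so reads may have been shared between them and single values are uncertain.

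The other fatty acid P450s went both ways. CYP2U1, a hydroxylase of long-chain fatty acids, stood at 590.2, 671 and 616 in the untreated wild-type libraries and 2089.5, 2209 and 2175 in the treated ones. CYP2U1 stood at 685, 658 and 627 in the untreated edited libraries and 2394, 2337 and 2447 in the treated ones. It rose in both lines (log2 fold change 1.79, SE 0.07, limma adjusted p = 3.54e-12 in wild type, 1.86, SE 0.07, limma adjusted p = 1.87e-12 in the edited line). CYP2J2, which makes arachidonic acid epoxides, stood at 113, 98.04 and 51.6 in the untreated wild-type libraries and 163, 145 and 143 in the treated ones. CYP2J2 stood at 44.4, 58.99 and 29.4 in the untreated edited libraries and 96.05, 142 and 102 in the treated ones. It rose in the edited line (log2 fold change 1.37, SE 0.30, limma adjusted p = 7.25e-04) and in wild type (log2 fold change 0.85, SE 0.30, limma adjusted p = 0.0211), the latter call lost without untreated wild-type replicate 3 or treated wild-type replicate 1 and with quantile normalization (adjusted p from 0.0506 to 0.131) and falling to a log2 fold change of 0.51 without untreated wild-type replicate 3. CYP4V2, a fatty acid hydroxylase mutated in a retinal dystrophy, fell from 943 ± 122 (SD, n = 3) to 614 ± 24.5 in wild type (log2 fold change -0.61, SE 0.09, limma adjusted p = 2.17e-05) and from 1836 ± 77.8 to 927 ± 5.01 in the edited line (log2 fold change -0.98, SE 0.09, limma adjusted p = 8.58e-08). The orphan P450 CYP20A1 stood at 2508, 2862 and 2614 in the untreated wild-type libraries and 1859.8, 1810.3 and 1856 in the treated ones. CYP20A1 stood at 3286, 3367 and 3410.1 in the untreated edited libraries and 1841, 1952 and 1875 in the treated ones. It fell in both lines (log2 fold change -0.53, SE 0.06, limma adjusted p = 1.86e-06 in wild type, -0.83, SE 0.06, limma adjusted p = 7.69e-09 in the edited line).

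Among the sterol P450s, CYP39A1 fell and CYP7B1 rose in both lines. CYP39A1, which hydroxylates 24-hydroxycholesterol, stood at 108, 104 and 77.3 in the untreated wild-type libraries and 41.8, 66.2 and 44.5 in the treated ones. CYP39A1 stood at 392, 405 and 389.9 in the untreated edited libraries and 90.8, 78.6 and 85.3 in the treated ones. The untreated edited libraries lay far above all others. CYP39A1 fell in wild type (log2 fold change -0.92, SE 0.20, limma adjusted p = 8.01e-04) and more steeply in the edited line (log2 fold change -2.21, SE 0.20, limma adjusted p = 6.76e-08), with an interaction of -1.29, SE 0.28, limma adjusted p = 0.00544. CYP7B1, the oxysterol 7-alpha-hydroxylase, moved the other way, at 39.9, 49.4 and 65.5 in the untreated wild-type libraries and 84.6, 97.8 and 150.4 in the treated ones. CYP7B1 stood at 20.6, 11.8 and 17.98 in the untreated edited libraries and 82.5, 90.4 and 124 in the treated ones. It rose in wild type (log2 fold change 1.07, SE 0.30, limma adjusted p = 0.00519) and in the edited line (log2 fold change 2.50, SE 0.30, limma adjusted p = 1.72e-06). The larger rise in the edited line (1.43, SE 0.42, limma adjusted p = 0.0297) was lost without untreated wild-type replicate 3, treated wild-type replicates 1 and 2, untreated edited replicate 2 or treated edited replicate 3 and with no filter (adjusted p from 0.0601 to 0.0868).

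CYP46A1, the cholesterol 24-hydroxylase, ranged from 4.13 to 28.8 in untreated and from 40.7 to 73.96 in treated libraries. It rose in the edited line (log2 fold change 2.33, SE 0.47, limma adjusted p = 4.21e-04) and in wild type (log2 fold change 1.48, SE 0.47, limma adjusted p = 0.0127), the latter call lost without untreated wild-type replicate 3 or treated wild-type replicate 3 (adjusted p from 0.0511 to 0.057). CYP19A1, the aromatase that makes estrogens, stood at 3.99, 3.30 and 0 in the untreated wild-type libraries and 0, 0 and 1.68 in the treated ones. CYP19A1 stood at 6.19, 20.4 and 8.99 in the untreated edited libraries and 10.4, 28 and 28.4 in the treated ones. Counted as reads, the treated wild-type libraries held 2 and the treated edited ones 61, a ratio of 34.7 with a counting interval of 9.19 to 293. Neither TGFβ comparison passed for CYP19A1.

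Among P450s known mainly for drug clearance, CYP3A5 and CYP2B6 fell in both lines, while CYP2D6 was called higher in wild type. CYP3A5, the main CYP3A of lung, stood at 782, 836 and 686 in the untreated wild-type libraries and 295, 390.3 and 469 in the treated ones. CYP3A5 stood at 917, 823 and 884 in the untreated edited libraries and 547, 692 and 487 in the treated ones. Within each line the treated libraries were below the untreated ones (log2 fold change -1.02, SE 0.15, limma adjusted p = 2.70e-05 in wild type, -0.62, SE 0.15, limma adjusted p = 0.00241 in the edited line). CYP2B6 stood at 182, 270.2 and 203 in the untreated wild-type libraries and 19.8, 19.2 and 6.72 in the treated ones. CYP2B6 stood at 165, 129 and 161 in the untreated edited libraries and 22.97, 7.54 and 4.55 in the treated ones. The fall was 14.4-fold in wild type (log2 fold change -3.87, SE 0.46, limma adjusted p = 1.98e-06) and 12.97-fold in the edited line (log2 fold change -3.86, SE 0.46, limma adjusted p = 1.87e-06).

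The near-identical CYP2D6 and CYP2D7, between 17.9 and 81.5 and between 18.9 and 58.8, were called higher with TGFβ in wild type (1.06 and 0.92). The call for CYP2D6 was lost without untreated wild-type replicate 1 or treated wild-type replicates 1 and 3 and with quantile normalization or a fit of the compared groups alone (adjusted p from 0.0528 to 0.107), and that for CYP2D7 without untreated wild-type replicate 2 or treated wild-type replicate 3 and with no filter or quantile normalization (adjusted p from 0.0596 to 0.129). The airway P450 CYP2F1, at 25.9 or less, was called lower in both lines (-1.76 in wild type and -1.74 in the edited line). The first of these was lost without untreated wild-type replicates 1 and 2 or treated wild-type replicate 3 and with no filter, a fit of the compared groups alone, edgeR or DESeq2 (adjusted p from 0.0603 to 0.208) and became -0.91 without treated wild-type replicate 3, and the second was lost without untreated edited replicates 1, 2 and 3 or treated edited replicate 1 and with no filter (adjusted p from 0.0623 to 0.148). With a pseudocount of 10 they were -0.85 and -0.75. CYP3A4, CYP2E1 and CYP2W1, none above 26.9, passed no TGFβ test.

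UGT1A genes rose. The 9 human UGT1A enzymes are made from a single stretch of chromosome 2 (GRCh38, chr2:233617645-233773310), in which each has its own first exon and promoter and all share the 3' exons. UGT1A9, UGT1A7, UGT1A6 and UGT1A1 passed the filter. UGT1A8, UGT1A10, UGT1A5, UGT1A4 and UGT1A3 did not, with no value above 10.9, and UGT1A10 was at 0 in 11 of the 12 libraries. In the annotation, 61.2% of the exon bases of UGT1A9, 40.6% of UGT1A7, 44.0% of UGT1A6 and 49.9% of UGT1A1 are shared with another of the 96 genes, so the split of reads among them depends on the counting and single values are uncertain. UGT1A9 and UGT1A7 are adjacent and rose in both lines, and the 150 bases upstream of their start sites are shown to let their promoters be compared. They come from RefSeq on GRCh38.p14, plus strand, and capitals mark the longest run of bases that both contain (11 bases).
UGT1A9, chr2:233671748-233671897: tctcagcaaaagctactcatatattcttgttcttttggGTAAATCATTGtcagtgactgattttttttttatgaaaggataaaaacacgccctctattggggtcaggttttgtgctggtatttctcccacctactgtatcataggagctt
UGT1A7, chr2:233681751-233681900: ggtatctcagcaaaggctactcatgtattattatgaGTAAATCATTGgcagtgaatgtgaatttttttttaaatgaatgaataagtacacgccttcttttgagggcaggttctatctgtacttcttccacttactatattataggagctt
The pair is 75.3% identical over this stretch (119 of 158 aligned columns).

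UGT1A9, which conjugates phenols and the anaesthetic propofol, stood at 3583, 3330.1 and 3407 in the untreated wild-type libraries and 12321, 12211 and 12812 in the treated ones. UGT1A9 stood at 2379, 1958 and 2303 in the untreated edited libraries and 13265, 11818 and 13732 in the treated ones. Its rise was 3.62-fold in wild type (log2 fold change 1.86, SE 0.08, limma adjusted p = 3.17e-12) and 5.85-fold in the edited line (log2 fold change 2.55, SE 0.08, limma adjusted p = 5.46e-14). UGT1A1, the bilirubin-conjugating enzyme, stood at 1141, 1055 and 1098 in the untreated wild-type libraries and 1899, 2224 and 2532 in the treated ones. UGT1A1 stood at 563, 493 and 581 in the untreated edited libraries and 2237, 2179 and 2317 in the treated ones. UGT1A1 rose 2.02-fold (log2 fold change 1.00, SE 0.10, limma adjusted p = 1.46e-07) and 4.11-fold (log2 fold change 2.04, SE 0.10, limma adjusted p = 1.96e-11). For both genes the untreated edited libraries lay below the untreated wild-type ones, and the treated libraries of the lines overlapped.

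UGT1A7, which conjugates benzo(a)pyrene metabolites, stood at 478, 377 and 419 in the untreated wild-type libraries and 829.9, 810.2 and 866 in the treated ones. UGT1A7 stood at 124, 92.2 and 118 in the untreated edited libraries and 395, 368 and 391 in the treated ones. It rose in wild type (log2 fold change 0.98, SE 0.13, limma adjusted p = 5.28e-06) and in the edited line (log2 fold change 1.79, SE 0.13, limma adjusted p = 3.58e-09), and within each treatment every edited library was below every wild-type one. UGT1A6, an enzyme of small phenols and serotonin, stood at 6758, 6039.9 and 6457 in the untreated wild-type libraries and 6931, 7400.5 and 8378 in the treated ones. UGT1A6 stood at 6069, 5206 and 6091 in the untreated edited libraries and 11416, 10323 and 11791 in the treated ones. It rose in the edited line (log2 fold change 0.95, SE 0.08, limma adjusted p = 3.51e-08). Its smaller rise in wild type (log2 fold change 0.24, SE 0.08, limma adjusted p = 0.0203) was lost without untreated wild-type replicate 2 or treated wild-type replicate 3 (adjusted p from 0.0866 to 0.0875). All 4 genes rose more in the edited line, with interactions of 0.69 for UGT1A9 (limma adjusted p = 4.10e-04), 0.81 for UGT1A7 (adjusted p = 0.00598), 0.72 for UGT1A6 (adjusted p = 5.85e-04) and 1.04 for UGT1A1 (adjusted p = 1.31e-04).

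The UGT2 genes of chromosome 4 lie in a row with SULT1B1 and SULT1E1 (GRCh38, chr4:68537184-69860152), where 9 of 12 members passed the filter. UGT2B15, UGT2B10, UGT2B11 and UGT2B4 fell in both lines, and UGT2B7 between them rose. To show how alike these neighbours are, the 150 bases upstream of 4 of the genes are given from RefSeq on GRCh38.p14, each on the strand of its gene, with the longest run that all 4 contain (9 bases) in capitals. UGT2B7 and UGT2B10 lie on the plus strand, and UGT2B11 and UGT2B15 on the minus strand.
UGT2B7, chr4:69096324-69096473: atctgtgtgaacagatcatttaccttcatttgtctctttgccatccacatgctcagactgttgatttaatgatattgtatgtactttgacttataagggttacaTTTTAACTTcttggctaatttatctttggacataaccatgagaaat
UGT2B10, chr4:68815844-68815993: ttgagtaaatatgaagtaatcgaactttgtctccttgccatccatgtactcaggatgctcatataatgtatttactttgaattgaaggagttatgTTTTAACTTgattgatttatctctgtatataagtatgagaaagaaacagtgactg
UGT2B11, chr4:69214749-69214898: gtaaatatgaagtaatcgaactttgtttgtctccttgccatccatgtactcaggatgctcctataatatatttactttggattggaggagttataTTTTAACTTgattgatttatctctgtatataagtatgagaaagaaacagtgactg
UGT2B15, chr4:68670653-68670802: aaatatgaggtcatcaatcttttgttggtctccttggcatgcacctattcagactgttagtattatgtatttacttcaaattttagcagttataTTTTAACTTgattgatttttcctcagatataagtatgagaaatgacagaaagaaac
UGT2B10 and UGT2B11 are 91.6% identical here and are 72.0% and 75.2% identical to UGT2B15, while UGT2B7 shares 61.6% to 64.1% with the others.

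UGT2B7, which conjugates morphine and steroids, stood at 181, 187 and 169 in the untreated wild-type libraries and 1164, 1084 and 1031 in the treated ones. UGT2B7 stood at 189.8, 161 and 171 in the untreated edited libraries and 1516, 1149 and 1374 in the treated ones. Every treated library was above every untreated one. The rise was 6.11-fold in wild type (log2 fold change 2.60, SE 0.12, limma adjusted p = 9.96e-12) and 7.74-fold in the edited line (log2 fold change 2.94, SE 0.12, limma adjusted p = 1.98e-12). The androgen-conjugating UGT2B15 ranged from 30.1 to 62.1 in untreated and from 0 to 8.35 in treated libraries (log2 fold change -4.26, SE 0.76, limma adjusted p = 1.29e-04 in wild type, -4.40, SE 0.76, limma adjusted p = 8.88e-05 in the edited line). UGT2B10, known for nicotine glucuronidation, ranged from 31.9 to 70.03 in untreated and from 2.52 to 19.8 in treated libraries (log2 fold change -2.59, SE 0.56, limma adjusted p = 8.09e-04 in wild type, -2.44, SE 0.56, limma adjusted p = 0.00126 in the edited line). With a pseudocount of 10 these falls were smaller for UGT2B15 (-2.10 and -2.13) and, in the edited line, for UGT2B10 (-1.62).

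UGT2B11, UGT2B28 and UGT2B4 stood out in the untreated edited line. How reads were split among these related genes is not given, so single values are uncertain. UGT2B11 stood at 30.9, 23.9 and 29 in the untreated wild-type libraries and 0, 4.79 and 5.04 in the treated ones. UGT2B11 stood at 153, 225 and 257 in the untreated edited libraries and 7.31, 7.54 and 1.14 in the treated ones. The treated libraries of the lines overlapped. UGT2B28, an androgen-conjugating enzyme, stood at 9.97, 15.7 and 10.7 in the untreated wild-type libraries and 17.6, 1.92 and 5.04 in the treated ones. UGT2B28 stood at 80.5, 115 and 106 in the untreated edited libraries and 12.5, 15.1 and 6.83 in the treated ones. The other 9 libraries lay far below the untreated edited ones. UGT2B4, a bile acid enzyme, stood at 37.9, 83.2 and 48.3 in the untreated wild-type libraries and 19.8, 35.5 and 37.8 in the treated ones. UGT2B4 stood at 216, 223 and 204 in the untreated edited libraries and 96.05, 62.5 and 79.6 in the treated ones. For each of them the 3 untreated edited libraries were the highest of the 12. Of the 5 hepatocyte markers tested, CPS1 was higher in those libraries than in untreated wild type (log2 fold change 1.10), and the others did not pass, at 0.66 for ALB, 0.59 for TAT, -0.51 for TTR and -1.26 for APOA1. Their part in the result was not tested. UGT2B11 fell with TGFβ in wild type (log2 fold change -3.14, SE 0.65, limma adjusted p = 5.24e-04, or -1.53 with a pseudocount of 10) and in the edited line (log2 fold change -5.29, SE 0.65, limma adjusted p = 2.39e-06). UGT2B28 fell in the edited line (log2 fold change -3.07, SE 0.55, limma adjusted p = 1.25e-04), while in wild type its log2 fold change was -0.90 (adjusted p = 0.165) and passed without treated wild-type replicate 1 (adjusted p = 0.00747). That value was -1.62 without treated wild-type replicate 1 and -0.28 without treated wild-type replicate 2. UGT2B4 fell in the edited line (log2 fold change -1.44, SE 0.30, limma adjusted p = 5.39e-04). Its call in wild type (log2 fold change -0.82, SE 0.30, limma adjusted p = 0.0268) was lost without untreated wild-type replicate 2 or treated wild-type replicate 1 and with a fit of the compared groups alone (adjusted p from 0.0839 to 0.159), with log2 fold changes of -0.50 without untreated replicate 2 and -0.53 without treated replicate 1.

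The interactions of UGT2B11 (-2.15, adjusted p = 0.126) and UGT2B28 (-2.17, adjusted p = 0.0684) did not pass. They passed, respectively, without treated wild-type replicate 1 and with a pseudocount of 10 or DESeq2 (adjusted p from 4.13e-04 to 0.00885) and without treated wild-type replicate 2 and with a pseudocount of 10, edgeR or DESeq2 (adjusted p from 0.0028 to 0.0332). UGT2A3, a bile acid conjugating enzyme, ranged from 124 to 337. It was called lower with TGFβ in wild type (log2 fold change -0.65, SE 0.22, limma adjusted p = 0.0166), a call lost without untreated wild-type replicate 2 or treated wild-type replicates 1 and 2 (adjusted p from 0.0618 to 0.113), with -0.40 without untreated wild-type replicate 2. UGT3A1, which uses N-acetylglucosamine as its sugar, stood at 103, 169.7 and 163 in the untreated wild-type libraries and 59.4, 31.6 and 31.9 in the treated ones. UGT3A1 stood at 90.8, 114 and 76.02 in the untreated edited libraries and 36.5, 64.6 and 43.2 in the treated ones. It fell in wild type (log2 fold change -1.83, SE 0.30, limma adjusted p = 6.40e-05) and in the edited line (log2 fold change -0.97, SE 0.30, limma adjusted p = 0.0109), the latter call lost without untreated edited replicate 2 or treated edited replicate 1 (adjusted p from 0.0518 to 0.0533). UGT3A2, at 23.9 or less, passed the filter through untreated libraries alone. It was called lower in wild type (-2.71, adjusted p = 0.0104), or -1.05 with a pseudocount of 10, and the call was lost without untreated wild-type replicate 1 (adjusted p = 0.0569).

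**Figure D2:**
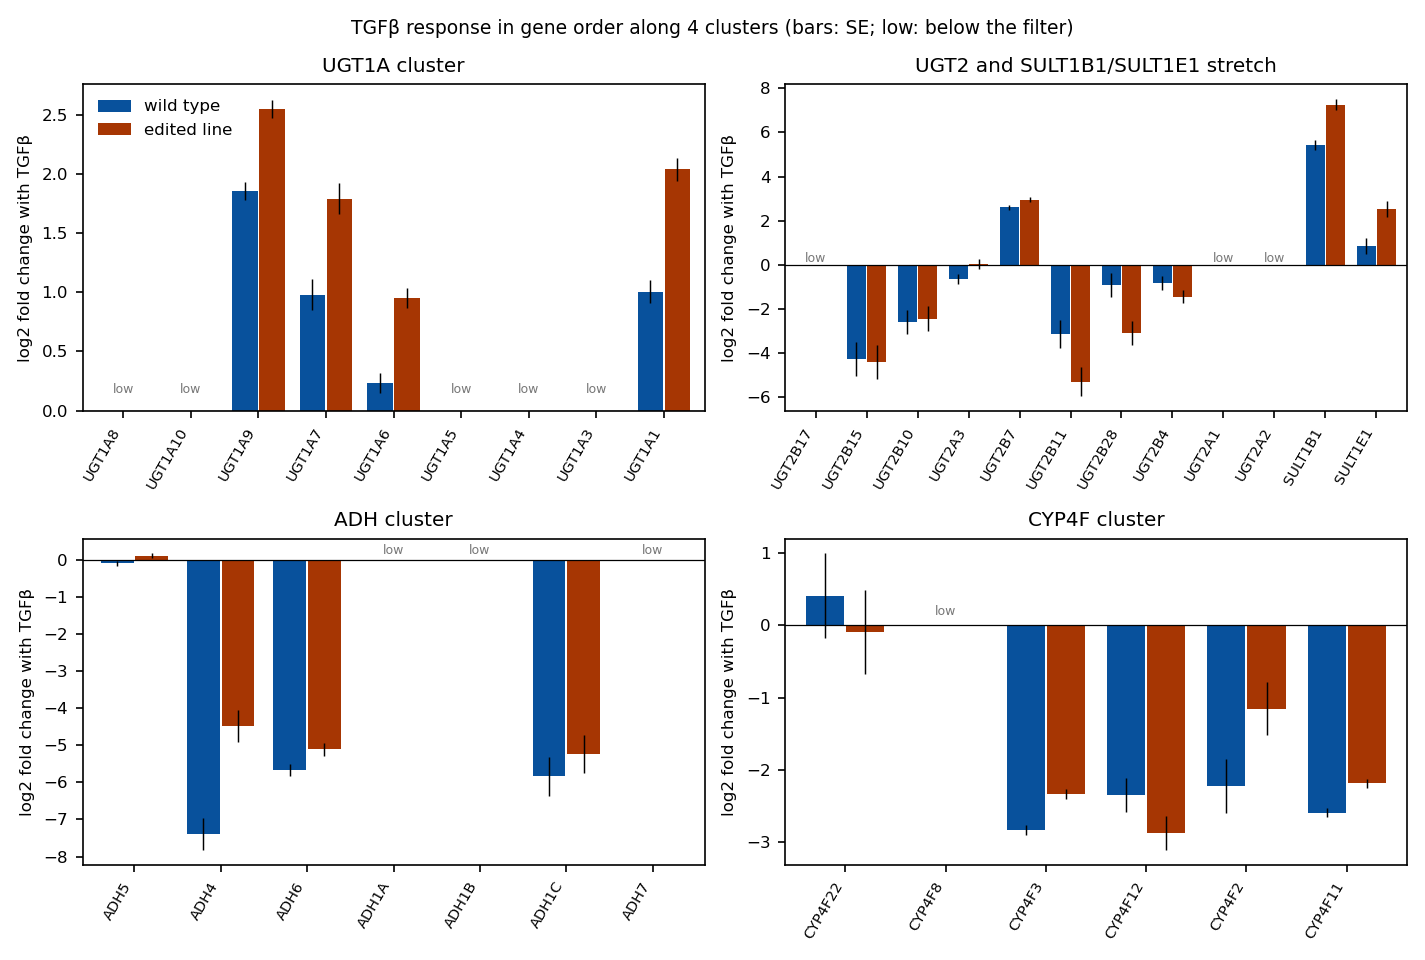
Log2 fold change with TGFβ (y axes, each panel with its own scale) for genes in the order of their chromosome along 4 clusters, blue for wild type and brown for the edited line, with SE as error bars and "low" for genes below the filter. All 4 detected UGT1A genes are above 0, UGT2B7, SULT1B1 and SULT1E1 are above 0 in both lines, UGT2B15, UGT2B10, UGT2B11, UGT2B28 and UGT2B4 are below 0, and ADH5 stays near 0 beside 3 ADH genes below -4.

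The alcohol dehydrogenases split into one level gene and 3 that nearly vanished. The 7 genes lie in a row on chromosome 4 (GRCh38, chr4:99070978-99435737), with ADH5 at one end, followed by ADH4, ADH6, ADH1A, ADH1B, ADH1C and ADH7. ADH1A, ADH1B and ADH7 stayed below the filter, with no value above 7.52. The 150 bases upstream of the 4 detected genes (RefSeq, GRCh38.p14, minus strand) are shown because they differ in base composition, and each CG dinucleotide is in capitals.
ADH5, chr4:99088789-99088938: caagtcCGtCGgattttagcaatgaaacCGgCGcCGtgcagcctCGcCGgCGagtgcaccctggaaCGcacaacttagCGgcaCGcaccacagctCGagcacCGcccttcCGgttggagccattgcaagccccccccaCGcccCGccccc
ADH4, chr4:99144298-99144447: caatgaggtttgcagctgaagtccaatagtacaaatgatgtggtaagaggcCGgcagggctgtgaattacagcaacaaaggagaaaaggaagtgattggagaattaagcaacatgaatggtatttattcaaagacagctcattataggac
ADH6, chr4:99219247-99219396: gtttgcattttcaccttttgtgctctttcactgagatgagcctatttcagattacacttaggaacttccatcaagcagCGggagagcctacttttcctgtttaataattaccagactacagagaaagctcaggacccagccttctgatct
ADH1C, chr4:99352747-99352896: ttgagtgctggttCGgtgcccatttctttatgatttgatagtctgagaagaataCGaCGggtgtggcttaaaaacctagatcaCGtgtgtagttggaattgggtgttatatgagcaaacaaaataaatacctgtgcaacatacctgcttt
ADH5 has 16 CG dinucleotides and 67.3% G and C in this stretch, against 1 and 40.7% for ADH4, 1 and 42.7% for ADH6 and 4 and 40.0% for ADH1C. Over all RefSeq windows of the same length the median was 7 CG dinucleotides (quartiles 2 and 15) and 60% G and C.

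ADH5, the glutathione-dependent enzyme that removes formaldehyde in all cells, stood at 17468, 16941 and 16172 in the untreated wild-type libraries and 16717, 15971 and 14421 in the treated ones. ADH5 stood at 14629.5, 14788 and 14410.2 in the untreated edited libraries and 16042, 14826 and 16298 in the treated ones. Its log2 fold changes with TGFβ were -0.10 in wild type (adjusted p = 0.158) and 0.10 in the edited line (adjusted p = 0.156). The first passed without treated wild-type replicate 1 (adjusted p = 0.0432) and was -0.04 without treated wild-type replicate 3. ADH6, a little studied liver-type ADH, stood at 3201, 3745 and 3008 in the untreated wild-type libraries and 84.6, 62.3 and 49.6 in the treated ones. ADH6 stood at 3158, 3441 and 3314 in the untreated edited libraries and 102, 74.3 and 113 in the treated ones. The fall was 50.6-fold in wild type (log2 fold change -5.67, SE 0.17, limma adjusted p = 9.87e-14) and 34.3-fold in the edited line (log2 fold change -5.11, SE 0.17, limma adjusted p = 3.33e-13).

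ADH4, which oxidises ethanol and retinol, stood at 449, 443 and 373 in the untreated wild-type libraries and 4.40, 1.92 and 0 in the treated ones. ADH4 stood at 361, 352 and 338 in the untreated edited libraries and 16.7, 11.8 and 15.9 in the treated ones. It fell in wild type (log2 fold change -7.39, SE 0.43, limma adjusted p = 2.87e-10) and in the edited line (log2 fold change -4.49, SE 0.43, limma adjusted p = 1.25e-07), and every treated edited library was above every treated wild-type one. The difference between the responses was 2.91, SE 0.61, limma adjusted p = 0.00371, and was 1.30 with a pseudocount of 10. ADH1C, an ethanol-oxidising ADH, stood at 160.5, 189 and 154 in the untreated wild-type libraries and 0, 3.84 and 4.20 in the treated ones. ADH1C stood at 178, 164 and 226 in the untreated edited libraries and 6.26, 4.31 and 2.28 in the treated ones. It fell in wild type (log2 fold change -5.84, SE 0.52, limma adjusted p = 5.52e-08, or -3.82 with a pseudocount of 10) and in the edited line (log2 fold change -5.23, SE 0.52, limma adjusted p = 1.90e-07). No treated library of ADH1C exceeded 6.26. Of the 5 hepatocyte markers tested, 5 fell in wild type and 4 in the edited line, CPS1 by 2.50 and 2.62 on the log2 scale, and their part in the result was not tested.

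The sulfotransferases held the steepest rise of any member. SULT1B1, which sulfates thyroid hormones and small phenols, stood at 23.9, 29.7 and 18.3 in the untreated wild-type libraries and 946, 956 and 1261 in the treated ones. SULT1B1 stood at 10.3, 13.9 and 22.9 in the untreated edited libraries and 2339.6, 2453 and 2527 in the treated ones. Every treated library was far above every untreated one. The rise was 44.03-fold in wild type (log2 fold change 5.42, SE 0.24, limma adjusted p = 7.94e-12) and 155-fold in the edited line (log2 fold change 7.26, SE 0.24, limma adjusted p = 1.91e-13), a difference between the lines of 1.84, SE 0.33, limma adjusted p = 0.00142. SULT1E1, the estrogen sulfotransferase and its neighbour, stood at 21.9, 70.03 and 39.7 in the untreated wild-type libraries and 67.05, 83.4 and 67.2 in the treated ones. SULT1E1 stood at 19.6, 39.7 and 44.1 in the untreated edited libraries and 208, 160.4 and 209 in the treated ones. It rose in the edited line (log2 fold change 2.52, SE 0.36, limma adjusted p = 1.46e-05). In wild type its log2 fold change was 0.85 (adjusted p = 0.0522) and passed without untreated wild-type replicate 2 or untreated edited replicate 1 and with a pseudocount of 10, a filter of 50 or the replicate block (adjusted p from 0.00603 to 0.0491), whereas without untreated wild-type replicate 1 it was 0.44. The interaction (1.66, SE 0.51, limma adjusted p = 0.037) was lost without untreated wild-type replicates 2 and 3, treated wild-type replicate 2, untreated edited replicate 1 or treated edited replicates 1 and 3 and with no filter (adjusted p from 0.0548 to 0.0949).

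SULT1A1, the main phenol sulfotransferase, fell. It stood at 395, 343 and 363 in the untreated wild-type libraries and 117, 92.1 and 91.6 in the treated ones. SULT1A1 stood at 421, 437 and 410.3 in the untreated edited libraries and 116, 114 and 132 in the treated ones. The fall was 3.67-fold in wild type (log2 fold change -1.87, SE 0.14, limma adjusted p = 6.48e-09) and 3.502-fold in the edited line (log2 fold change -1.80, SE 0.14, limma adjusted p = 9.12e-09). Its close copy SULT1A2 never exceeded 26.8 and was also called lower (-3.11 in wild type, -3.01 in the edited line, or -1.33 and -1.13 with a pseudocount of 10). The catecholamine enzyme SULT1A3, a further copy, was between 4.29 and 32.98 and was called higher in both lines (1.40 and 1.04). Its call in the edited line was lost without treated wild-type replicates 1, 2 and 3, untreated edited replicates 1 and 2 or treated edited replicates 1 and 2 and with no filter, quantile normalization, the replicate block, a fit of the compared groups alone, edgeR or DESeq2 (adjusted p from 0.0536 to 0.146), and the value there was 0.56 with a pseudocount of 10. Reads of the SULT1A copies are hard to assign, so these 3 values are uncertain.

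SULT1C2, active on small phenols, stood at 40.9, 62.6 and 65.5 in the untreated wild-type libraries and 2.20, 15.3 and 31.9 in the treated ones. SULT1C2 stood at 88.7, 117 and 104 in the untreated edited libraries and 14.6, 21.5 and 27.3 in the treated ones. It fell in wild type (log2 fold change -2.23, SE 0.59, limma adjusted p = 0.00371) and in the edited line (log2 fold change -2.27, SE 0.59, limma adjusted p = 0.00318), and in wild type the log2 fold change was -1.28 without treated replicate 1 and -1.48 with a pseudocount of 10. SULT2B1, which sulfates cholesterol and led the SULT genes per kilobase, went from 11141 ± 244 (SD, n = 3) to 8659 ± 1320.3 in wild type (log2 fold change -0.37, SE 0.09, limma adjusted p = 0.00173) and from 10193 ± 164 to 8193 ± 795 in the edited line (log2 fold change -0.32, SE 0.09, limma adjusted p = 0.00524). SULT1C4 ranged from 0 to 14.3 and passed no test.

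**Figure D3:**
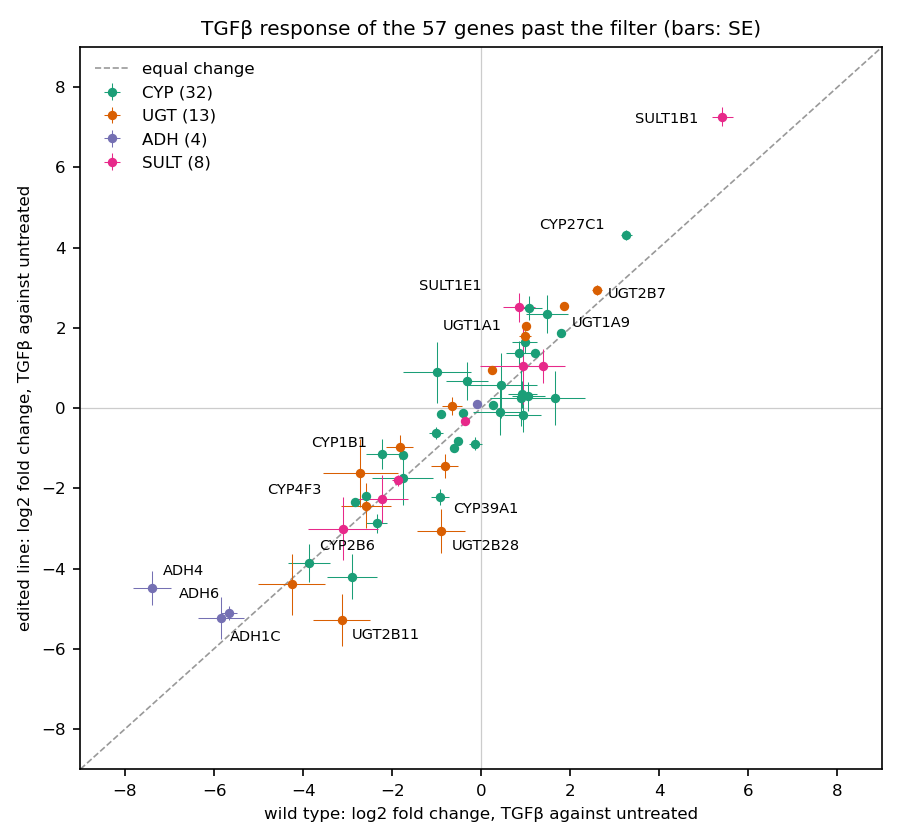
Log2 fold change with TGFβ in wild type (x axis) and in the edited line (y axis) for the 57 detected genes, coloured by family, with SE bars and a dashed line of equal change. Points lie from ADH4, ADH6 and ADH1C at the lower left to SULT1B1 at the upper right, and UGT2B11, UGT2B28 and CYP39A1 lie below the dashed line.

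Without TGFβ, the edited line already differed from wild type in 22 of the 57 genes (38.6%, against 31.8% of all genes tested), 9 higher and 13 lower, where 14.3% and 17.5% of all genes were higher and lower. Differences of at least 2-fold numbered 10, 4 higher and 6 lower, against 5.01% of all genes. The higher genes included UGT2B11 (log2 fold change 2.85, SE 0.65, limma adjusted p = 0.00315), UGT2B28 (log2 fold change 2.96, SE 0.55, limma adjusted p = 6.46e-04), UGT2B4 (log2 fold change 1.98, SE 0.30, limma adjusted p = 1.19e-04), CYP39A1 (log2 fold change 2.04, SE 0.20, limma adjusted p = 1.64e-06), CYP4V2 (log2 fold change 0.97, SE 0.09, limma adjusted p = 1.08e-06) and CYP20A1 (log2 fold change 0.34, SE 0.06, limma adjusted p = 7.32e-04). In each of these the untreated edited libraries lay above all untreated wild-type ones. The lower genes included UGT1A7 (log2 fold change -1.93, SE 0.13, limma adjusted p = 2.94e-08), CYP7B1 (log2 fold change -1.57, SE 0.30, limma adjusted p = 8.14e-04), CYP26A1 (-1.45), CYP27C1 (log2 fold change -1.03, SE 0.12, limma adjusted p = 1.05e-05), UGT1A1 (log2 fold change -1.01, SE 0.10, limma adjusted p = 1.24e-06), UGT1A9 (log2 fold change -0.64, SE 0.08, limma adjusted p = 9.96e-06), CYP2S1 (log2 fold change -0.55, SE 0.08, limma adjusted p = 1.39e-04), CYP4F11 (log2 fold change -0.42, SE 0.06, limma adjusted p = 1.03e-04) and CYP4F3 (log2 fold change -0.28, SE 0.07, limma adjusted p = 0.00538). No SULT passed, and the log2 fold change of SULT1B1 was -0.62 (adjusted p = 0.0564), which passed without untreated wild-type replicate 3, treated wild-type replicate 3 or untreated edited replicate 3 and with a filter of 50, quantile normalization or the replicate block (adjusted p from 0.00441 to 0.0487), whereas without untreated edited replicate 1 it was -0.38.

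Several calls in this comparison were lost when a library was left out. CYP1B1 (-0.32, limma adjusted p = 0.0166) was lost without untreated wild-type replicates 1 and 3 or untreated edited replicates 1 and 2 (adjusted p from 0.0595 to 0.0852). CYP24A1 (0.22, adjusted p = 0.0374) was lost without untreated wild-type replicates 1, 2 and 3, treated wild-type replicate 2, untreated edited replicates 1, 2 and 3 or treated edited replicate 3 and with no filter (adjusted p from 0.0522 to 0.11). ADH5 (-0.21, adjusted p = 0.0189) was lost without untreated wild-type replicate 1 or untreated edited replicates 1 and 3 (adjusted p from 0.0513 to 0.08). CYP2J2 (-0.95, adjusted p = 0.0229) was lost without untreated wild-type replicates 1 and 2 or untreated edited replicate 3 and with a fit of the compared groups alone (adjusted p from 0.0807 to 0.114). These are a carcinogen-activating P450, the vitamin D hydroxylase, the formaldehyde dehydrogenase and the arachidonic acid epoxygenase. CYP4F2 (-1.05, adjusted p = 0.0409) was lost without untreated wild-type replicates 1, 2 and 3 or untreated edited replicates 2 and 3 and with no filter (adjusted p from 0.0547 to 0.135). CYP27B1 (0.49, adjusted p = 0.0211) was lost without untreated wild-type replicates 1 and 3 or untreated edited replicate 1 (adjusted p from 0.0635 to 0.102). CYP2R1 (0.18, adjusted p = 0.0499) was lost without untreated wild-type replicates 1 and 2, treated wild-type replicate 2, untreated edited replicates 1, 2 and 3 or treated edited replicates 1 and 3 and with a pseudocount of 10, no filter, the replicate block or a fit of the compared groups alone (adjusted p from 0.0504 to 0.202).

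With TGFβ present, the test between the lines called 14 of the 57 (24.6%, against 11.7% of all genes tested), 12 higher and 2 lower in the edited line, where 7.38% and 4.32% of all genes were higher and lower. At least 2-fold differences numbered 7, 5 higher and 2 lower, against 1.57% of all genes. The filter bears on CYP19A1, which is among the higher genes in both counts. It passed the filter through edited libraries alone, as no wild-type library exceeded 3.99. When the treated groups were fitted alone, 8 were called, and the share of all genes called was 5.78%. That share was 18.7% without treated wild-type replicate 3, 6.97% without treated wild-type replicate 2 and 6.78% without treated edited replicate 3, and the members called were 15, 11 and 10. The higher genes included CYP19A1 (described above, log2 fold change 3.94, adjusted p = 0.00308, and 1.56 with a pseudocount of 10), SULT1B1 (log2 fold change 1.22, SE 0.24, limma adjusted p = 0.00316), UGT2B4 (log2 fold change 1.36, SE 0.30, limma adjusted p = 0.00762), CYP4V2 (log2 fold change 0.59, SE 0.09, limma adjusted p = 5.29e-04), UGT1A6 (log2 fold change 0.56, SE 0.08, limma adjusted p = 3.23e-04) and CYP24A1 (log2 fold change 0.51, SE 0.08, limma adjusted p = 4.40e-04). ADH4 was higher as well (log2 fold change 2.64, SE 0.43, limma adjusted p = 8.26e-04, or 1.05 with a pseudocount of 10), but not with a fit of the compared groups alone (adjusted p = 0.0577). UGT1A7 was lower (log2 fold change -1.12, SE 0.13, limma adjusted p = 3.80e-05).

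The remaining calls with TGFβ were smaller or less stable. SULT1E1 (1.39, limma adjusted p = 0.0201) was lost without treated edited replicates 1 and 3 (adjusted p from 0.0677 to 0.083). CYP39A1 (0.76, adjusted p = 0.0216) was lost without treated wild-type replicate 1 or treated edited replicates 1 and 3 and with a fit of the compared groups alone (adjusted p from 0.0687 to 0.114). CYP3A5 (0.59, adjusted p = 0.0204) was lost without treated wild-type replicates 1 and 2 or treated edited replicate 2 and with a fit of the compared groups alone (adjusted p from 0.0553 to 0.113). All 3 were higher in the edited line. ADH6 (0.56, adjusted p = 0.0472) was lost without untreated wild-type replicates 1, 2 and 3, treated wild-type replicates 2 and 3, untreated edited replicates 1, 2 and 3 or treated edited replicates 1 and 3 and with no filter, quantile normalization, a fit of the compared groups alone or edgeR (adjusted p from 0.0556 to 0.264). CYP4F3 (0.22, adjusted p = 0.0433) was lost without untreated wild-type replicates 1, 2 and 3, treated wild-type replicates 1 and 2, untreated edited replicates 1, 2 and 3 or treated edited replicates 2 and 3 and with no filter, TMM scaling, quantile normalization, a fit of the compared groups alone or edgeR (adjusted p from 0.0505 to 0.166).

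The TGFβ response itself differed between the lines for 16 of the 57 genes (28.1%, against 16.6% of all genes tested), 13 with a more positive response in the edited line and 3 with a more negative one, where 10.6% and 6.02% of all genes were called each way. The median over the 57 was 0.17, against 0.02 over all genes tested. The 3 with a more negative response were CYP39A1, CYP27B1 and CYP20A1 (-0.30, SE 0.09, limma adjusted p = 0.0305, a call lost without untreated wild-type replicates 1 and 3, treated wild-type replicate 2, untreated edited replicates 1, 2 and 3 or treated edited replicates 1 and 3 (adjusted p from 0.0502 to 0.0859)). At least 2-fold differences numbered 7, 6 positive and 1 negative, against 2.7% of all genes. The comparisons of the lines without and with TGFβ use the same libraries as this test, so their values are only set side by side in the plot of line differences.

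**Figure D4:**
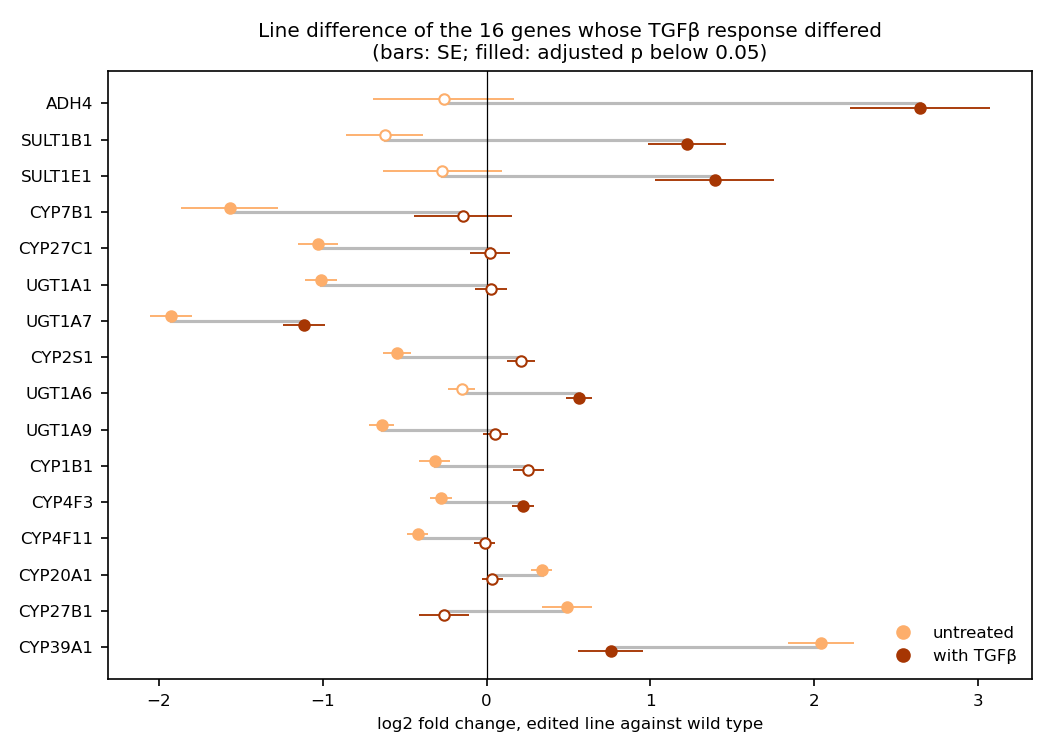
Log2 fold change of the edited line against wild type (x axis) for the 16 genes with a called difference in TGFβ response (rows, sorted by that difference), light points for untreated and dark points for treated libraries, with SE bars and filled points for adjusted p below 0.05. CYP27C1, UGT1A1 and UGT1A9 move from below 0 without TGFβ to about 0 with it, and ADH4, SULT1B1 and SULT1E1 move from about or below 0 to above 1.

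Regulators of these enzymes moved in both directions. Of the 26 xenobiotic and nuclear receptor genes tested, 11 rose and 8 fell in wild type (42.3% and 30.8%, against 30.8% and 30.9% of all genes). In the edited line 13 rose and 6 fell (50% and 23.1%, against 32.1% and 30.7%), with medians of 0.17 and 0.25 in the lines against 0.02 and 0.03 over all genes. The bile acid receptor NR1H4 fell from 214 to 4.05 in wild type (log2 fold change -5.93, SE 0.54, limma adjusted p = 8.11e-08) and from 694 to 28.01 in the edited line (log2 fold change -4.61, SE 0.54, limma adjusted p = 1.48e-06). The pregnane receptor NR1I2, which induces CYP3A and CYP2B genes, stood at 3.99, 7.41 and 8.59 in the untreated wild-type libraries and 42.9, 32.6 and 42.9 in the treated ones. NR1I2 stood at 4.13, 6.44 and 1.63 in the untreated edited libraries and 16.7, 8.61 and 22.8 in the treated ones. It rose in wild type (log2 fold change 2.44, SE 0.51, limma adjusted p = 5.35e-04) and in the edited line (log2 fold change 1.78, SE 0.51, limma adjusted p = 0.00597), or by 1.57 and 0.86 with a pseudocount of 10. The hepatocyte factor HNF4A rose from 10440.4 to 31846 in wild type (log2 fold change 1.61, SE 0.05, limma adjusted p = 3.20e-13) and from 7405 to 32707 in the edited line (log2 fold change 2.14, SE 0.05, limma adjusted p = 8.15e-15).

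The partners that supply electrons and cosubstrates were also measured. The list of 9 tested P450 partners held electron donors and also PGRMC1 and PGRMC2, which are not counted as donors here. Of the 9, 5 rose and 3 fell in wild type (55.6% and 33.3%, against 30.8% and 30.9% of all genes). In the edited line 5 rose and 4 fell (55.6% and 44.4%, against 32.1% and 30.7%). FDXR was called higher in wild type (log2 fold change 0.34) and lower in the edited line (-0.36). POR, the reductase of microsomal P450s, stood at 12173, 12536 and 12519 in the untreated wild-type libraries and 7078, 6461 and 6262 in the treated ones. POR stood at 11018, 11179 and 11356 in the untreated edited libraries and 6630.5, 5587 and 6208 in the treated ones. POR fell in wild type (log2 fold change -0.91, SE 0.07, limma adjusted p = 4.15e-09) and in the edited line (log2 fold change -0.87, SE 0.07, limma adjusted p = 6.79e-09). The cytochrome b5 gene CYB5B (-0.85 and -0.88) fell and the haem carrier PGRMC2 (0.81 and 1.06) rose in both lines.

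A list for the cosubstrates UDP-glucuronic acid and active sulfate held 11 tested genes. It also included SLC35B1, SLC35B2, SLC35B3 and BPNT1, which are not counted as suppliers here. Of the 11, 3 rose and 8 fell in each line (27.3% and 72.7%, against 30.8% and 30.9% of all genes in wild type and 32.1% and 30.7% in the edited line). UGDH, which makes UDP-glucuronic acid for the UGTs, went from 98293 ± 6499 (SD, n = 3) to 43281 ± 1377 in wild type (log2 fold change -1.18, SE 0.07, limma adjusted p = 4.31e-10) and fell likewise in the edited line (log2 fold change -1.06, SE 0.07, limma adjusted p = 1.43e-09). The sulfate-activating enzymes parted, with PAPSS2 falling (-0.91 in wild type, -1.16 in the edited line) and PAPSS1 rising (1.30 and 1.44). The sulfate transporter SLC26A2 rose (1.31 and 0.99). Each of these was called in both lines.

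Among 29 other tested enzymes of drug metabolism, 5 rose and 15 fell in wild type (17.2% and 51.7%, against 30.8% and 30.9% of all genes), and 7 rose and 15 fell in the edited line (24.1% and 51.7%, against 32.1% and 30.7%). The glutathione transferase GSTA1 fell from 707 to 25.9 in wild type (log2 fold change -4.74, SE 0.28, limma adjusted p = 3.01e-10) and likewise in the edited line (log2 fold change -4.29, SE 0.28, limma adjusted p = 9.12e-10). The carboxylesterase CES1 fell in wild type (log2 fold change -3.10, SE 0.68, limma adjusted p = 9.14e-04) and in the edited line (log2 fold change -5.13, SE 0.68, limma adjusted p = 5.98e-06, or -3.28 with a pseudocount of 10), where 1 treated library was at 0. MGST3 fell in both (-1.65 and -1.33). Of 21 steroid and eicosanoid enzymes, 7 rose and 7 fell in wild type (33.3% each, against 30.8% and 30.9% of all genes), and 9 rose and 6 fell in the edited line (42.9% and 28.6%, against 32.1% and 30.7%). The prostaglandin synthase PTGS2 fell (-3.13 and -2.31), PTGS1 rose (2.95 and 2.07) and the thromboxane synthase TBXAS1 fell (-2.53 and -2.18).

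Promoter letters were searched on both strands of the RefSeq windows, which run from 250 bases before to 50 after a start site and were found for 43 of the 57 genes. Those 43 genes had 57 windows in all. The AHR core letters GCGTG were in 13 of these 57 windows (13 genes) and in 36.5% of all 35116 windows. CYP1A1, UGT1A6, UGT1A7 and UGT1A9 were among the 13. The antioxidant element letters TGACNNNGC were in 8 of the 57 windows (8 genes, among them CYP4F11, CYP2B6 and UGT1A6) and in 13.3% of all windows. The letters TATAAA were in 15 of the 57 windows (14 genes) and in 11.5% of all windows. The retinoic acid receptor repeat DR5, AGGTCA written again after a gap, was in 0 of the 57 windows and in 0.0057% of all windows. No window was found for CYP1B1, CYP24A1, CYP2D6, CYP2D7, CYP2F1, CYP4F12, CYP7B1, CYP27B1, CYP46A1, UGT2B4, UGT2B28, SULT1A1 and SULT1A2. These matches describe letters and say nothing of binding.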

How the data were processed

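Total RNA of 12 cultures was sequenced. The tools named per the submitters' processing notes are DESeq2, HISAT2, featureCounts and StringTie, and the build is GRCh38.p14. Versions, roles, strand setting and annotation: not given in the sources used here. The authors deposited a signal of normalized counts per gene. These values were whole multiples of a step within 0.01 in every library, which gave back whole reads; for replicate 1 of untreated wild type that step was near 1. No column was left unmapped.

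The 20456 genes that reached 10 in 3 or more libraries were tested on log2(value + 1) with limma 3.58.1 (trend, R 4.3.3), in a single fit of 4 group means with 8 residual degrees of freedom, two-sided, with Benjamini-Hochberg adjustment over all tested genes and a threshold of 0.05. Fold changes on this scale understate the change of low genes. Fold differences given as "-fold" are ratios of group means. edgeR 4.0.16 (quasi-likelihood test) and DESeq2 1.42.0 were run on the recovered reads as alternatives, beside other pseudocounts, filters and scalings, each library left out, a replicate block, and fits restricted to the groups compared. The test was also run on simulated data, whose outcome is not given here and on which no result rests. The members and lists were chosen with earlier results of these data known. Values in every library are given for members with a mean of at least 100 in a group that were called with at least a doubling or halving between groups or called in the interaction, and by range for the rest. A few named items that these rules cover are not reported here. From each list up to 4 called genes with the largest change were named, with fixed receptors, reductase and cosubstrate enzymes added. Exon lengths and positions came from GENCODE 29 on GRCh38.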

Additional observations from a re-analysis of the deposited data

Results flagged for a closer look

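A test of the difference between the TGFβ responses of the lines singled out 16 genes, given here as the log2 fold change in the edited line minus that in wild type. The enzymes with a more positive response in the edited line were ADH4 (2.91), SULT1B1 (1.84), SULT1E1 (1.66), CYP7B1 (1.43), CYP27C1 (1.05), UGT1A1 (1.04), UGT1A7 (0.81), CYP2S1 (0.75), UGT1A6 (0.72), UGT1A9 (0.69), CYP1B1 (0.57), CYP4F3 (0.50) and CYP4F11 (0.41). Those with a more negative response were CYP39A1 (-1.29), CYP27B1 (-0.75) and CYP20A1 (-0.30). The mean normalized count of ADH4 in treated wild type was 2.10.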

How the results depend on the processing

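Calls on the 57 members were repeated under 22 alternatives (21 for the interaction). No called direction reversed. Of the called members, 36 of 46 kept their call in every alternative for TGFβ in wild type, 37 of 41 for TGFβ in the edited line, 15 of 22 for the untreated edited line, 7 of 14 for the treated edited line and 12 of 16 for the interaction. The number called for the treated edited line fell from 14 to 8 when the treated groups were fitted alone, and over all genes it fell from 2394 to 1183. Leaving out 1 library gave 40 to 47, 38 to 41, 16 to 24, 10 to 15 and 12 to 19 called members in the same order. Same-numbered libraries deviated together in 2 of 18 pairs (correlation above 0.1, range -0.03 to 0.13). Pairs with unlike numbers ranged from -0.15 to 0.15. With 3 libraries per group, these correlations cannot show whether same-numbered libraries shared a batch or culture. The replicate block gave 47, 40, 22, 15 and 17, and it ended the calls of CYP2R1 in the untreated edited line and SULT1A3 with TGFβ in the edited line and no other of these calls. Some members with low counts (CYP1A1, CYP2F1, UGT3A2, SULT1A2) are limited by depth, and their fold changes were smaller with a pseudocount of 10.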

Other observations

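HSD3B1, which makes progesterone and other steroids, was listed at 0 in all 3 untreated wild-type libraries and stood at 84.6, 105 and 67.2 in the treated ones, 8.25, 9.65 and 8.17 in the untreated edited libraries and 104, 93.7 and 122 in the treated ones. It rose with TGFβ in the edited line (log2 fold change 3.47, SE 0.35, limma adjusted p = 2.24e-07). CYP11A1, the P450 that starts steroid synthesis, ranged from 0 to 18.3.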
